A study of Mus musculus with 4 samples.

Results

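Lysosomes are the acidic compartments in which cells break down proteins, sugars and lipids. In Langerhans cells, which capture and present antigens in the epidermis, they receive captured material and stand beside the compartments where MHC class II molecules are loaded. Described here are 33 genes of the lysosome, chosen by name: proteins of the lysosomal membrane, the hydrolases inside it, the vacuolar proton pump that acidifies it, and Tfeb, a transcription factor of lysosomal genes. Cathepsins were left out of the list. Probe sets annotated to a single listed gene were found for 31 of the 33, and the probe set with the greatest mean over the 4 arrays stood for its gene. Cd63 and Arsb had no such probe set and were not analysed here. Over the whole array, 12393 genes were represented in the same way.

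The cells were Langerhans cells from ear epidermis, taken after 16 hours in culture and sorted as living MHC class II-positive cells from a low-density fraction. The comparison was between AhR-deficient mice, which lack exon 2 of Ahr, and wild-type C57BL/6 mice, with 2 arrays per genotype. AhR, the aryl hydrocarbon receptor, switches on target genes when it binds a ligand. No mice were treated, per the labels, which do not give the number of mice behind each sample. The sort selects on MHC class II, and the deletion is described without restriction to a cell type.

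The values are log2 signals of a probe set after background correction, quantile normalisation and summary of its probes (RMA). The array medians lay between 5.60 and 5.63, and the 25th percentile of the probe set means was 4.56. None of the 31 lysosomal genes lay below it. Langerin (Cd207), which marks Langerhans cells, averaged 11.46 ± 0.36 in AhR-deficient and 11.53 ± 0.75 in wild-type cells (SD, n = 2 each). The labelled cell type thus had its defining transcript on every array. The summed linear signal of 15 Langerhans cell markers was 21600 and 20800 in AhR-deficient cells, against 15900 and 20600 in wild-type cells. Wild-type replicate 1 gave the lowest sum. Of the 15, 4 were higher without overlap between genotypes (26.7%, against 18.8% of all genes) and 2 lower (13.3%, against 16.6%). Log2 differences of the 15, AhR-deficient minus wild-type, ran from -1.05 for Csf1r to 1.31 for H2-Aa. Whether the cells were alike between genotypes was not tested. For Actb, the 3' control probe set exceeded the 5' one, a gap that widens as RNA gets shorter, by log2 values of 2.34 and 2.61 on the AhR-deficient arrays, against 3.16 and 2.65 on the wild-type arrays. For Gapdh this gap was 2.24 and 2.19 in the AhR-deficient pair and 2.60 and 1.97 in the wild-type pair. Wild-type replicate 1 had the highest value for both controls, while for Gapdh wild-type replicate 2 had the lowest. The correlation over all probe sets was 0.990 between the AhR-deficient arrays and 0.987 between the wild-type arrays, while across genotypes it ranged from 0.979 to 0.989. The arrays farthest apart were those numbered replicate 1 in either genotype, and values without one of them are given where a result depends on them.

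Many lysosomal genes carry E-box-like CLEAR sites near their start, to which TFEB and its relatives bind, while AhR binds sites around the core GCGTG. RefSeq promoters of GRCm38.p6, from 250 bases before to 50 after the start, matched 29 of the 33 genes. Those without a match were Npc1, Asah1, Atp6v1b2 and Atp6v1h. Searched on both strands, the letters GTCACGTG stood in the promoter of 8 of the 29 genes (27.6%), against 2.55% of the 27025 genes with a promoter. The shorter core CACGTG, which lies inside GTCACGTG, was found in 10 of the 29 (34.5%), against 8.09% of all genes. The AhR core GCGTG was found in 11 of the 29 (37.9%), against 35.2% of all genes, and neither it nor its reverse complement can lie inside GTCACGTG. Below are the promoters of the 4 genes that held GTCACGTG and whose arrays did not overlap between the genotypes, so that the match can be seen beside the values. Capitals mark GTCACGTG or its reverse complement and GCGTG or its reverse complement, each read 5' to 3' on the strand of the gene.
Lamp1, chr8:13158911-13159210, plus strand: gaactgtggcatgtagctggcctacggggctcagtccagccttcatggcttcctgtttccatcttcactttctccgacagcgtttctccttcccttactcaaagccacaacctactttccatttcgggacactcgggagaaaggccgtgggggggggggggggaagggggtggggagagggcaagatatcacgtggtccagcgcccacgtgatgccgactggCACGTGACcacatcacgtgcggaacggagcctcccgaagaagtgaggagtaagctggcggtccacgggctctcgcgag
Cln3, chr7:126583187-126583486, minus strand: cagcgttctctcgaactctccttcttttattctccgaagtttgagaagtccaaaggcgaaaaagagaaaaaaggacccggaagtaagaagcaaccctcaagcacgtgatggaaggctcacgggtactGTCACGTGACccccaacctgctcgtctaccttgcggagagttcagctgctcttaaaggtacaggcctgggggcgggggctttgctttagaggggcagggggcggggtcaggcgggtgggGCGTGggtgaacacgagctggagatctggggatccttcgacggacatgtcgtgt
Gla, chrX:134600956-134601255, minus strand: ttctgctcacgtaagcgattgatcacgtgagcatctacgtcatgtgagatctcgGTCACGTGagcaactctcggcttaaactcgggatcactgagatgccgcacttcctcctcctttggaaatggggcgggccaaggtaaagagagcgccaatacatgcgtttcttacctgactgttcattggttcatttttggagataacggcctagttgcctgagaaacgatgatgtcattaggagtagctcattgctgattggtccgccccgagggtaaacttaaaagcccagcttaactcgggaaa
Atp6v0d1, chr8:105566015-105566314, minus strand: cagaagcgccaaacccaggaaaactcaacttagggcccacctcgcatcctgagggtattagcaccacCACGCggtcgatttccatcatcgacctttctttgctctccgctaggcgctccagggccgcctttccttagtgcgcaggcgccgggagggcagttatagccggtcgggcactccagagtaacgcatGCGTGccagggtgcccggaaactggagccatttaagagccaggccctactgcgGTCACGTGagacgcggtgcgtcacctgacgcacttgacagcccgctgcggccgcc
In Cln3 a pair of GTCACGTG matches on opposite strands overlap, at -123 and -121 relative to the start. Another Cln3 start in the table holds neither of the motifs in capitals. The match begins at -196 in Gla, at -28 in Lamp1 and at -5 in Atp6v0d1, and Lamp1 holds 4 CACGTG cores. The first 3 of these genes had higher signals in AhR-deficient cells and Atp6v0d1 had lower ones. Among the measured genes, the 8 with GTCACGTG had a median log2 difference of 0.08, AhR-deficient minus wild-type, and the 19 with a promoter lacking it had 0.19. A match of letters is a description and no evidence of binding.

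The comparison of the genotypes asks how transcripts of Langerhans cells differ without AhR. For the lysosome, no gene passed the test, and the values leaned towards higher signals in AhR-deficient cells. All 6 measured enzymes and cofactors of lipid and peptide breakdown had positive differences. In limma, 0 of the 31 genes rose and 0 fell at an adjusted p under 0.05, where 0.0177% of all probe sets passed (0% higher and 0.0177% lower). Adjusted p-values of the 31 genes ranged from 0.553 to 0.998. At an unadjusted p under 0.05, 6 were higher, against 3.5% of all genes, and 0 lower, against 3.04% of all genes. Both AhR-deficient arrays lay above both wild-type arrays for 12 of the 31, against 18.8% of all genes, and below them for 1, against 16.6% of all genes. The log2 difference was above 0 for 25 of the 31, against 52.2% of all genes. Its median was 0.17, against 0.01 over all genes, and it ranged from -0.39 to 1.08. For 6 of the 31 genes (19.4%) the difference between genotypes was larger than the gap between replicates in either genotype, against 23.4% of all genes, so by that share the lysosomal genes stood no further from their replicate spread than genes did in general. In sorted cells measured in bulk, fewer cells of a type and less RNA per cell cannot be told apart.

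**Figure D1:**
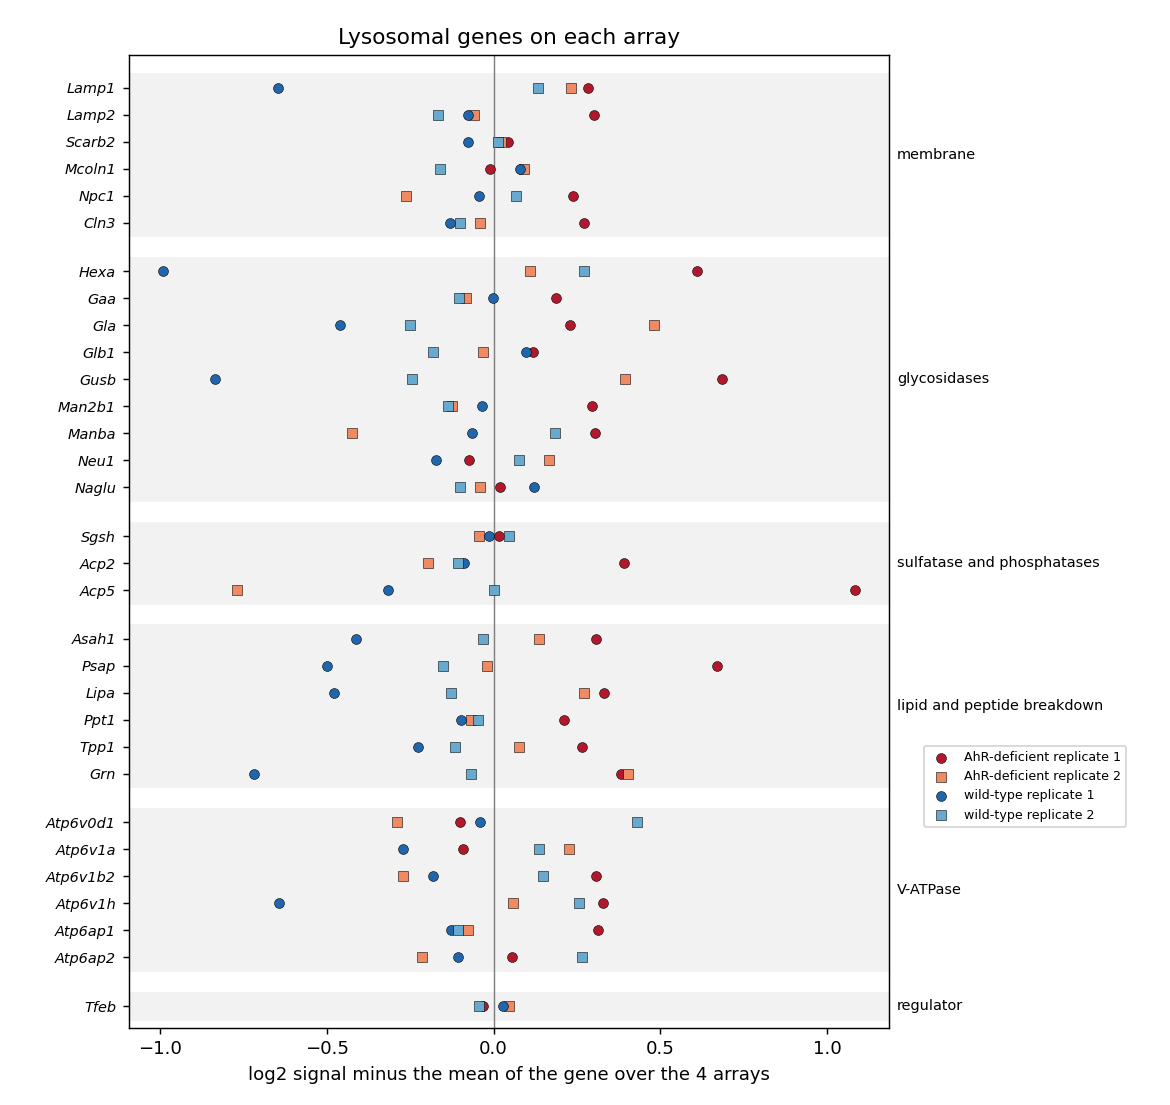
Each row is a lysosomal gene and each point an array, placed by its log2 signal minus the mean of that gene over the 4 arrays, with AhR-deficient arrays in red and orange and wild-type arrays in dark and light blue. AhR-deficient replicate 1 was the highest array for 21 of the 31 genes and wild-type replicate 1 the lowest for 16.

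The lean was uneven between arrays. AhR-deficient replicate 1 gave the highest value for 21 of the 31 genes (67.7%), against 31.7% of all genes. It gave the lowest for 0, against 26% of all genes. Wild-type replicate 1 gave the lowest value for 16 (51.6%), against 26.3% of all genes. AhR-deficient replicate 2 was the lowest array for 8 of the 31 (25.8%), near the 22.7% of all genes. Between replicates, AhR-deficient replicate 1 exceeded replicate 2 for 25 of 31 genes (80.6%), against 53.2% of all genes. Wild-type replicate 1 lay below wild-type replicate 2 for 23 (74.2%), against 47.7% of all genes. The median gap between replicates was 0.27 in AhR-deficient and 0.25 in wild-type cells, against 0.12 in either genotype over all genes. Paired array by array, the median log2 difference of the 31 genes was 0.38 for AhR-deficient replicate 1 minus wild-type replicate 1 and 0.29 for AhR-deficient replicate 1 minus wild-type replicate 2. With AhR-deficient replicate 2 it was 0.04 against wild-type replicate 1 and 0.05 against wild-type replicate 2. Without AhR-deficient replicate 1 the median difference of the list was 0.06, with 16 genes higher without overlap, where 32.4% of all genes were, and 8 lower, where 32.1% were. Without wild-type replicate 1 it was 0.16, with 18 higher, against 35.2% of all genes, and 3 lower, against 29.4%. Leaving out AhR-deficient replicate 2 gave a median of 0.38, with 23 higher, against 38.9% of all genes, and 1 lower, against 33%. Leaving out wild-type replicate 2 gave 0.20, with 17 higher, against 34.9% of all genes, and 2 lower, against 34.6%.

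**Figure D2:**
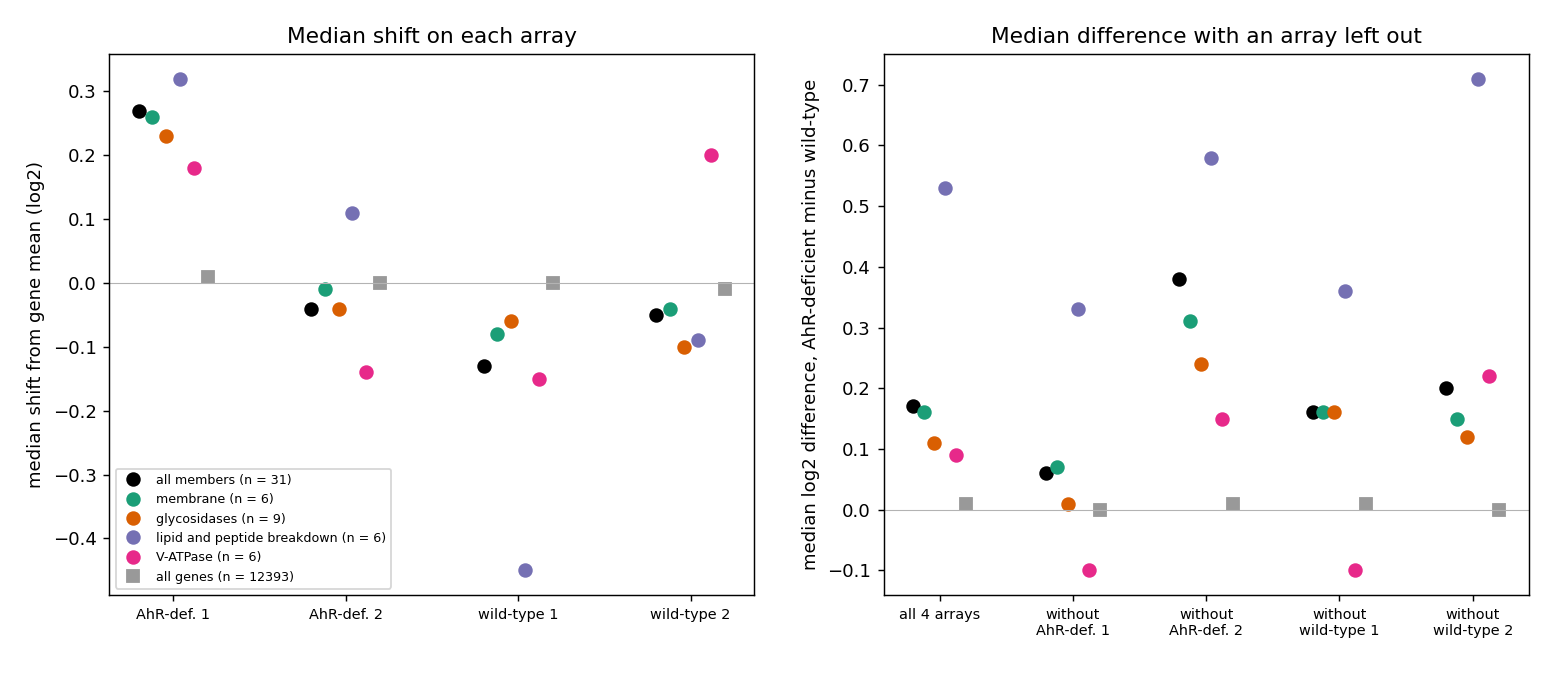
The left panel shows, for each array, the median log2 shift of the genes of a list from their own mean over the 4 arrays, and the right panel the median log2 difference, AhR-deficient minus wild-type, with all arrays and with each left out. The 6 genes of lipid and peptide breakdown had medians from 0.33 to 0.71 in the right panel, and the medians of the V-ATPase genes lay on both sides of 0.

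Summed signals of marker lists for macrophages, keratinocytes and T cells also differed between these arrays. The summed linear signal of 14 macrophage markers was 1520 and 1050 in AhR-deficient cells, against 740 and 910 in wild-type Langerhans cells, highest in AhR-deficient replicate 1 and lowest in wild-type replicate 1. Of these markers 8 were higher without overlap (57.1%, against 18.8% of all genes), 1 was lower (7.14%, against 16.6%), and 2 lay below the 25th percentile. Cd163 was one of those, at 3.70 and 3.65 in the AhR-deficient pair and 3.60 and 3.73 in the wild-type pair. C1qa, a complement component of macrophages, had 8.11 and 7.59 on the AhR-deficient arrays, against 6.25 and 7.24 on the wild-type arrays. Adgre1 was the 1 marker lower without overlap, with 6.92 and 5.84 on the AhR-deficient arrays, against 7.11 and 7.43 on the wild-type arrays. For 21 keratinocyte markers the sum was 1570 and 985 in AhR-deficient cells, against 870 and 931 in wild-type Langerhans cells, with 9 higher without overlap (42.9%), 2 lower (9.52%) and 6 below the 25th percentile. The 16 T cell markers summed to 788 and 848 in the AhR-deficient pair and 982 and 893 in the wild-type pair, with 0 higher and 6 lower (37.5%). The 8 melanocyte markers summed to 514 and 541 on the AhR-deficient arrays, against 538 and 527 on the wild-type arrays, which overlapped. Which cells the marker transcripts came from was not tested, and neither was the part of such cells in the lysosomal values.

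Genes of the lysosomal membrane had mostly small differences, of which the largest was that of Lamp1. LAMP1 and LAMP2 are the abundant glycoproteins that line the lysosomal membrane, and LAMP2 also serves chaperone-mediated autophagy. Lamp1 had 10.88 and 10.83 on the AhR-deficient arrays, against 9.95 and 10.73 on the wild-type arrays. Wild-type replicate 1 was the low array, and the difference of 0.52 (SE 0.28, limma adjusted p = 0.876) was 0.13 without it. Lamp2 had 9.53 and 9.17 in AhR-deficient cells, against 9.15 and 9.06 in wild-type Langerhans cells, a difference of 0.25 (SE 0.15), which was 0.06 without AhR-deficient replicate 1. Its other probe sets did not give a single answer, at 0.68 (SE 0.17), 0.11 (SE 0.21) and -0.08 (SE 0.21). Cln3, a membrane protein mutated in a juvenile neuronal storage disease, had 5.87 and 5.56 in the AhR-deficient pair and 5.47 and 5.50 in the wild-type pair. The arrays did not overlap, but the difference of 0.23 (SE 0.13) was 0.07 without AhR-deficient replicate 1. Scarb2, the receptor that carries glucocerebrosidase to the lysosome, had 7.83 and 7.81 on the AhR-deficient arrays, against 7.71 and 7.80 on the wild-type arrays. These arrays were separated only narrowly, and the difference of 0.07 was no larger than its error (SE 0.08). The calcium channel Mcoln1 and the cholesterol exporter Npc1 overlapped between genotypes, with differences of 0.08 (SE 0.11) and -0.02 (SE 0.19). Mcoln1 was at -0.04 without wild-type replicate 2, and Npc1 reached 0.23 when AhR-deficient replicate 2 was left out. The overlap of Mcoln1 depended on the probe set. A second Mcoln1 probe set had 6.81 and 6.67 on the AhR-deficient arrays, against 6.39 and 6.49 on the wild-type arrays. These did not overlap, at a difference of 0.30 (SE 0.09, limma adjusted p = 0.769). Over the 6 measured membrane genes the median difference was 0.16, and it was 0.07 when AhR-deficient replicate 1 was left out and 0.31 when AhR-deficient replicate 2 was. Of them 4 were higher without overlap, against 18.8% of all genes, and 0 lower, against 16.6%.

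Glycosidases trim sugars from glycoproteins, glycolipids and glycosaminoglycans. Gusb, the beta-glucuronidase, had the largest difference of the 31 genes. Its signal was 9.07 and 8.78 in AhR-deficient cells, against 7.55 and 8.14 in wild-type Langerhans cells. The log2 difference of 1.08 (95% confidence interval 0.44 to 1.72), which is 2.11-fold, exceeded the replicate gaps of 0.29 and 0.59 but did not pass adjustment (limma adjusted p = 0.636). A second Gusb probe set differed by 0.55 (SE 0.23), also with both AhR-deficient arrays higher. Gla, the alpha-galactosidase that removes terminal galactose from glycolipids, had 5.49 and 5.74 in the AhR-deficient pair and 4.80 and 5.01 in the wild-type pair. Its difference of 0.71 (95% confidence interval 0.35 to 1.07) had the smallest unadjusted p of the 31 (0.00506, limma adjusted p = 0.553). The other Gla probe set differed by only 0.12 (SE 0.08), and its mean lay below the 25th percentile of probe sets. Over the mean of its probe sets the Gla difference was 0.41. With 16 added to each signal on the linear scale, which shrinks differences of low signals, the first probe set gave 0.5.

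For the other 7 glycosidases the arrays of the genotypes overlapped. Hexa, the alpha subunit of beta-hexosaminidase, is named after its values were seen, because 1 array set most of its difference. It had 9.66 and 9.16 on the AhR-deficient arrays, against 8.06 and 9.32 on the wild-type arrays, and its difference of 0.72 (SE 0.47) was 0.09 without wild-type replicate 1. The remaining 6 were Gaa, which degrades glycogen, the beta-galactosidase Glb1, the mannosidases Man2b1 and Manba, the sialidase Neu1, and Naglu of heparan sulfate breakdown. A second Gaa probe set differed by -0.12 (SE 0.08), with both AhR-deficient arrays below both wild-type arrays. By the probe sets that stood for them, the differences of the 6 genes ran from -0.12 for Manba to 0.17 for Man2b1. Each of these 6 had the opposite sign without at least 1 of the arrays, Manba for example at 0.24 once AhR-deficient replicate 2 was left out. Over the 9 glycosidases the median was 0.11, or 0.01 without AhR-deficient replicate 1. Of the 9, 2 were higher without overlap (22.2%), close to the 18.8% of all genes, and 0 lower, against 16.6%.

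All 3 measured sulfatase and phosphatase genes overlapped between the genotypes. Acp2, the lysosomal acid phosphatase, had 6.61 and 6.02 in AhR-deficient cells, against 6.13 and 6.11 in wild-type Langerhans cells, a difference of 0.19 (SE 0.22). This overlap depended on the probe set. A second Acp2 probe set of nearly the same mean gave 6.40 and 6.46 in the AhR-deficient pair and 5.95 and 5.96 in the wild-type pair, a difference of 0.47 (SE 0.08, limma adjusted p = 0.533). One more differed by 0.83 (SE 0.27), and both AhR-deficient arrays were higher for it too, but its mean lay below the 25th percentile of probe sets. Acp5, the tartrate-resistant phosphatase of osteoclasts and macrophages, is named after its values were seen. It had 10.74 and 8.89 on the AhR-deficient arrays, against 9.34 and 9.66 on the wild-type arrays, the widest replicate gap of the list at 1.85, so that the AhR-deficient arrays enclosed the wild-type ones. Its difference of 0.32 turned to -0.61 when AhR-deficient replicate 1 was left out and grew to 1.24 when AhR-deficient replicate 2 was. The sulfamidase Sgsh differed by -0.03 (SE 0.08, 95% confidence interval -0.24 to 0.19).

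All 6 genes of lipid and peptide breakdown and their cofactors had positive differences, with a median of 0.53. The median was 0.35 when all probe sets of a gene were averaged, and 0.34 over the 5 genes left without probe sets ending in _s_at, _x_at or _a_at. For 5 of the 6 both AhR-deficient arrays lay above both wild-type arrays, against 18.8% of all genes, and wild-type replicate 1 was the lowest array for all 6. Grn encodes progranulin, a secreted and lysosomal protein needed for lysosome function. It had 9.06 and 9.08 in AhR-deficient cells, against 7.96 and 8.61 in wild-type Langerhans cells. The difference was 0.79 (SE 0.23, limma adjusted p = 0.751), or 0.47 without wild-type replicate 1. All 3 Grn probe sets gave similar values, the others differing by 0.82 (SE 0.20) and 0.62 (SE 0.17). Psap encodes prosaposin, the precursor of the saposins that lift lipids to their hydrolases. Its signal was 9.97 and 9.28 in the AhR-deficient pair and 8.80 and 9.15 in the wild-type pair, a difference of 0.65 (SE 0.27). It rested in part on the high AhR-deficient replicate 1, without which it was 0.31, and a second probe set gave 0.73 (SE 0.31).

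Lipa, the acid lipase that frees cholesterol and fatty acids from lipoprotein lipids, had 8.05 and 7.99 on the AhR-deficient arrays, against 7.24 and 7.59 on the wild-type arrays. The groups did not overlap and the difference of 0.61 (SE 0.14, limma adjusted p = 0.664) exceeded both replicate gaps. Other Lipa probe sets differed far less, by 0.13 (SE 0.12) and 0.03 (SE 0.12), so the size of its difference rests on 1 of 3 probe sets. Asah1, the acid ceramidase, had 9.40 and 9.23 in AhR-deficient cells, against 8.68 and 9.06 in wild-type Langerhans cells, a difference of 0.45 (SE 0.16), or 0.26 without wild-type replicate 1. Tpp1, a tripeptidyl peptidase, had 8.70 and 8.51 in the AhR-deficient pair and 8.21 and 8.32 in the wild-type pair. Its difference was 0.34 (SE 0.10), and a second probe set gave 0.14 (SE 0.34) with overlapping arrays. Ppt1, which removes fatty acids from proteins, overlapped at 0.15 (SE 0.12). With any single array left out, the median of the 6 genes stayed between 0.33 and 0.71.

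**Figure D3:**
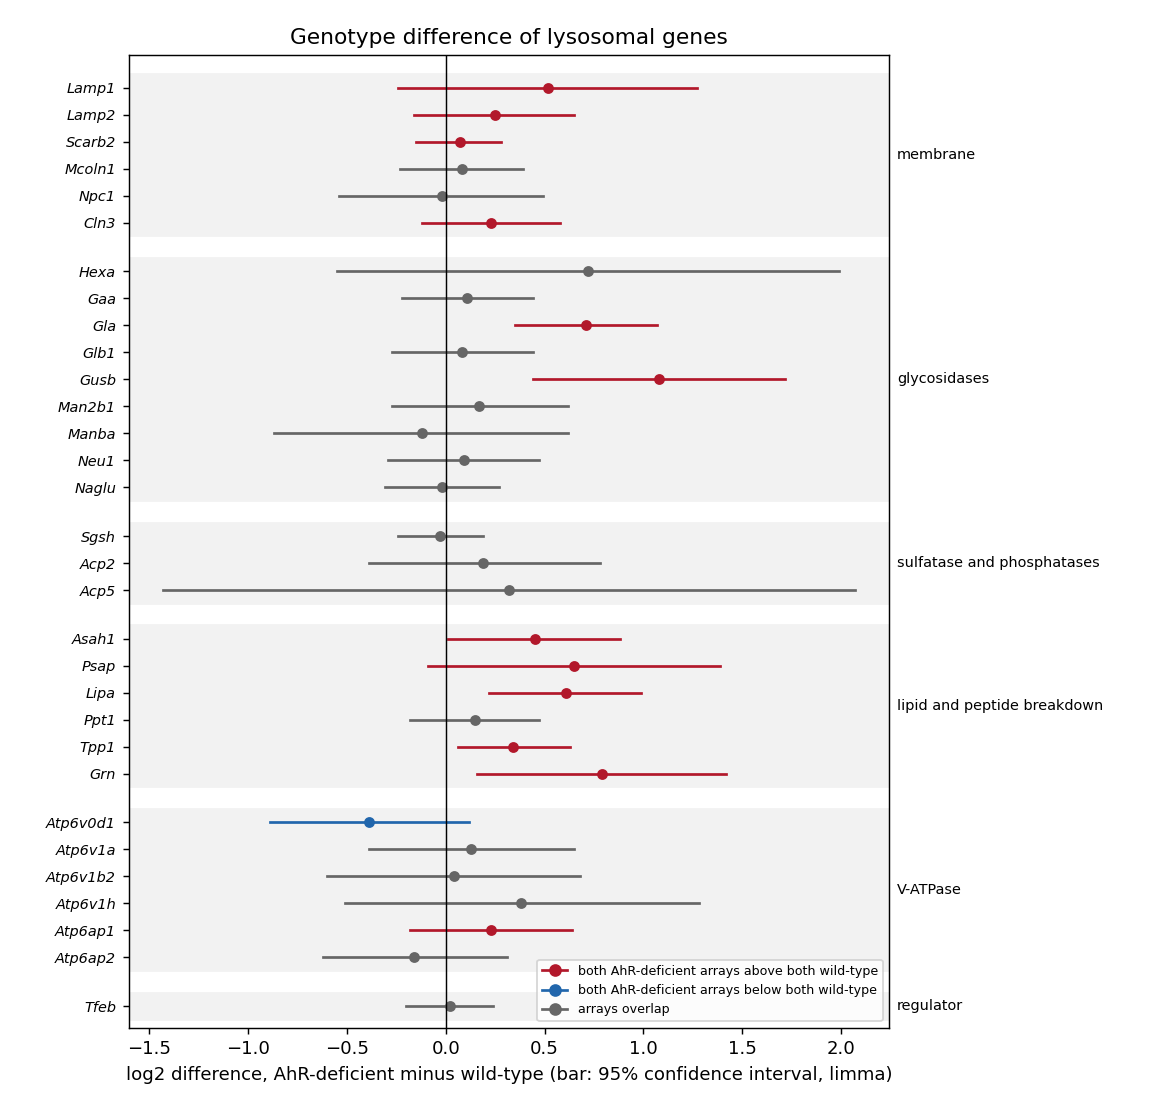
Points give the log2 difference, AhR-deficient minus wild-type, for each lysosomal gene and bars its 95% confidence interval from limma; red marks genes whose AhR-deficient arrays both lay above the wild-type ones, blue the reverse and grey overlap. Gusb (1.08), Grn (0.79) and Gla (0.71) lie on the right with intervals above 0, Atp6v0d1 (-0.39) lies furthest to the left, and Acp5 has the widest interval.

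The vacuolar ATPase pumps protons into the lysosome through a membrane sector driven by a cytosolic sector that splits ATP. Its genes had differences of both signs. Atp6v0d1, a subunit that joins the sectors, had both AhR-deficient arrays below both wild-type arrays. By the probe sets that stood for the genes, it was the only one of the 31 to do so. It had 9.09 and 8.90 on the AhR-deficient arrays, against 9.15 and 9.62 on the wild-type arrays, a difference of -0.39 (SE 0.19, limma adjusted p = 0.867). Leaving out wild-type replicate 1 gave -0.62, and leaving out wild-type replicate 2 gave -0.15. Atp6ap1, an accessory subunit, had 9.80 and 9.41 in AhR-deficient cells, against 9.36 and 9.38 in wild-type Langerhans cells. The difference of 0.23 (SE 0.15) was 0.04 without AhR-deficient replicate 1. For the accessory subunit Atp6ap2 and the cytosolic subunits Atp6v1a, Atp6v1b2 and Atp6v1h the arrays overlapped, with differences from -0.16 to 0.38. Each of these 4 differences had the opposite sign without at least 1 of the arrays, that of Atp6v1h being -0.07 without wild-type replicate 1. A second Atp6v1a probe set had 8.42 and 8.29 on the AhR-deficient arrays, against 8.48 and 8.49 on the wild-type arrays. These did not overlap, at a difference of -0.13 (SE 0.08). The 6 genes had a median of 0.09, which was -0.10 without AhR-deficient replicate 1 and also -0.10 without wild-type replicate 1.

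Tfeb, the transcription factor that drives many lysosomal genes when it enters the nucleus, had 6.46 and 6.54 in the AhR-deficient pair and 6.52 and 6.45 in the wild-type pair. The difference was 0.02 (SE 0.08, 95% confidence interval -0.20 to 0.24). Transcript levels say nothing of where the protein was.

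Of the 31 genes, 18 were measured by several probe sets and 13 by a single one. Of the 26 probe sets that did not represent their gene, 20 had a difference of the same sign as the one that did. Among the 18 genes, 11 had all probe sets higher, 6 had probe sets of both signs, and Sgsh had both of its probe sets lower. Over all 57 probe sets of the 31 genes, the smallest adjusted p in limma was 0.533. Which transcripts each probe set reads was not checked here.

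**Figure D4:**
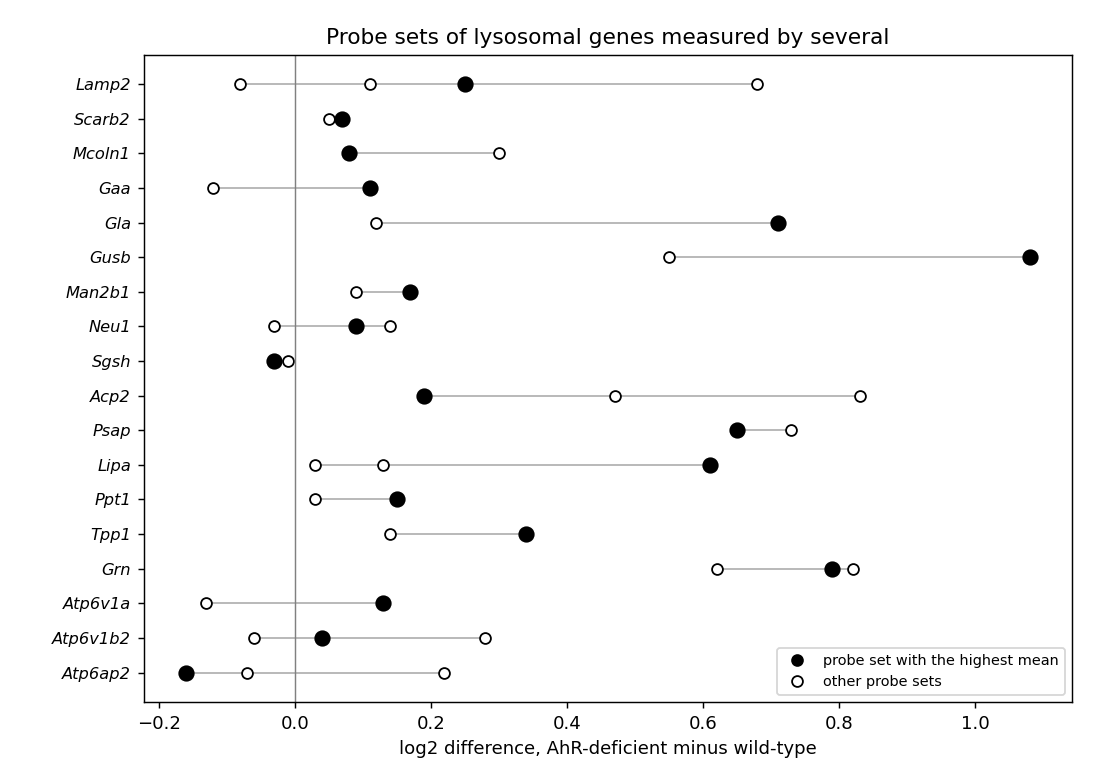
Each row is one of the 18 lysosomal genes with several probe sets, and each point the log2 difference, AhR-deficient minus wild-type, of a probe set; the filled point is the one with the highest mean. Psap and Grn probe sets lie close together, while those of Lamp2, Gla, Gusb, Acp2 and Lipa differ by more than 0.5 between the extremes.

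Further genes of the lysosome and its supply, listed by function, had differences of both signs. Of 130 measured, 0 passed in limma, 24 were higher without overlap, against 18.8% of all genes, and 18 lower, against 16.6%. Their median difference was 0.03. At an unadjusted p under 0.05 there were 7 higher, against 3.5% of all genes, and 6 lower, against 3.04%. Among 26 other hydrolases and related enzymes, 4 were higher and 4 lower without overlap (15.4% each), near the shares over all genes. The thiol reductase Ifi30, which opens disulfide bonds of antigens in endosomes, had 11.65 and 11.22 on the AhR-deficient arrays, against 10.20 and 10.46 on the wild-type arrays, a difference of 1.11 (SE 0.19, limma adjusted p = 0.533). Lgmn, an asparaginyl endopeptidase, differed by 1.02 (SE 0.28) and the fucosidase Fuca1 by -0.48 (SE 0.11). The values of the hydrolases thus ran both ways.

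Among 24 other membrane and transport genes, 9 were higher without overlap (37.5%, against 18.8% of all genes) and 2 lower (8.33%, against 16.6%), with a median of 0.12. Cd68, a lysosomal glycoprotein of phagocytes, had 8.53 and 8.34 in AhR-deficient cells, against 7.08 and 7.55 in wild-type Langerhans cells, a difference of 1.12 (SE 0.19). Slc11a1, a metal ion transporter of phagosomes, differed by 0.35 (SE 0.14), and the peptide transporter Slc15a3 by -0.98 (SE 0.33). Of 16 further V-ATPase genes, 4 were higher without overlap (25%, against 18.8% of all genes) and 1 lower (6.25%, against 16.6%). The a3 subunit gene Tcirg1 differed by 0.61 (SE 0.20), Atp6v0e2 by 0.29 (SE 0.10) and Atp6v1g1 by -0.52 (SE 0.12), so this pump's subunits again had differences of both signs. Atp6v1g1 was at -0.28 with averaged probe sets and at -0.13 without probe sets ending in _s_at, _x_at or _a_at. None of these genes passed adjustment.

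Genes of mannose 6-phosphate sorting and vesicle coats showed small differences, from -0.21 to 0.24 over 21 genes, with 2 higher without overlap (9.52%, against 18.8% of all genes) and 3 lower (14.3%, against 16.6%). Ap1g1, a subunit of the AP-1 coat, differed by -0.20 (SE 0.08), which was 0.01 over the mean of its probe sets. The sorting receptor Sort1 differed by -0.19 (SE 0.09), which was -0.07 over the mean of its probe sets. For the tethering subunit Vps39 the difference was 0.14 (SE 0.08). Of 17 relatives and regulators of Tfeb, 1 was higher (5.88%) and 2 lower (11.8%) without overlap. Mtor, the kinase that holds TFEB in the cytosol when nutrients are plentiful, had 7.90 and 7.66 in the AhR-deficient pair and 8.20 and 8.13 in the wild-type pair, a difference of -0.38 (SE 0.11, limma adjusted p = 0.749). Over the mean of its probe sets the Mtor difference was -0.2. Zkscan3, a repressor of autophagy genes, differed by 0.17 (SE 0.09). Rragd, a lysosomal GTPase of the mTORC1 pathway, differed by -0.13 (SE 0.08) at a mean below the 25th percentile. In the autophagy list of 27 genes, 4 were higher (14.8%) and 6 lower (22.2%), shares not far from those over all genes. Pik3r4 and Atg14, subunits of an autophagy lipid kinase complex, differed by -0.28 (SE 0.08) and -0.23 (SE 0.07), and Uvrag, also in the list, by 0.33 (SE 0.11).

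Cathepsins, lysosomal proteases outside the list, were compared as a list that also named the cathepsin inhibitor Cst3. Its 14 measured genes had a median difference of 0.31, with 12 of them positive. Both AhR-deficient arrays lay above both wild-type arrays for 8 (57.1%, against 18.8% of all genes) and below for 1 (7.14%, against 16.6%), and 0 passed in limma. Ctsb had 10.35 and 9.94 on the AhR-deficient arrays, against 8.71 and 9.14 on the wild-type arrays, a difference of 1.22 (SE 0.21, limma adjusted p = 0.533). Over the mean of its probe sets the Ctsb difference was 0.73.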

How the data were processed

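The data were 4 Affymetrix MOE430A arrays of sorted mouse Langerhans cells, 2 AhR-deficient and 2 wild-type. Total RNA was amplified and labelled with biotin, per the labels' protocols. The deposited log2 expression values per probe set were made with affy and RMA, per the submitters' processing notes; their versions are not given in the sources used here. They were used without further scaling. Of 22690 probe sets, 64 controls were left out and 22626 tested. The platform annotation gave 1 symbol to 20380 of them, several to 691 and none to 1555. Symbols were checked through Entrez identifiers (20351 matched, 0 changed).

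The genotype comparison used limma (version 3.58.1, R 4.3.3; lmFit, eBayes, two-sided, residual degrees of freedom 2, prior 2.27), adjusted by Benjamini-Hochberg over all probe sets. Each difference is AhR-deficient minus wild-type on the log2 scale, n = 2 each; SE is moderated, with a median of 0.10 over all genes, and the number of arrays limits the precision. The labels call the samples biological replicates. No set test was run. The steps were tested on simulated data. Printed array by array were genes with non-overlapping arrays or, in a role without any, the gene with the smallest p; other pathway lists gave up to 3 non-overlapping genes each. The members and lists were chosen with earlier results of these data known.

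Replicate numbers are shared between genotypes, but nothing states that they pair the arrays, and deviations of same-numbered arrays from their group means correlated at -0.31, so no block was used. Alternatives were a replicate block, other eBayes settings, filters, scalings, array weights, probe set choices and leaving out each array.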

Additional observations from a re-analysis of the deposited data

How the results depend on the processing

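The number of lysosomal genes past adjustment was 0 higher and 0 lower under all 14 alternatives. With the replicate block their smallest adjusted p in limma was 0.992, and 0 genes were called higher and 0 lower; the crossed pairing, chosen after seeing the data, also gave 0 and 0. The median difference of the genes was 0.17 and lay between 0.15 and 0.19 under the alternatives that kept all arrays, except for 0.14 over the 24 genes left without probe sets ending in _s_at, _x_at or _a_at. Leaving out an array moved it between 0.06 and 0.38, the number higher without overlap between 16 and 23, and the number lower between 1 and 8; with fewer arrays more genes fail to overlap by construction. Averaging all probe sets of a gene gave 2 genes lower without overlap in place of 1. Array weights came out equal for every array and so changed nothing. The median of the 6 genes of lipid and peptide breakdown was 0.53, 0.35 with averaged probe sets and 0.34 without the suffixed ones. Of 718 differences recomputed for the 31 lysosomal genes and 21 further genes, 0 passed and 690 kept their sign; 15 of the 31 kept it under every alternative. Leaving out an array changed the sign of 16 lysosomal genes. Their ranges were -0.61 to 1.24 for Acp5, -0.10 to 0.49 for Acp2 (0.50 with averaged probe sets), -0.06 to 0.00 for Sgsh, -0.04 to 0.20 for Mcoln1 and -0.28 to 0.23 for Npc1. Among glycosidases they were -0.02 to 0.24 for Gaa, -0.05 to 0.22 for Glb1, -0.03 to 0.38 for Man2b1, -0.49 to 0.24 for Manba, -0.03 to 0.21 for Neu1 and -0.13 to 0.09 for Naglu. V-ATPase ranges were -0.07 to 0.34 for Atp6v1a, -0.25 to 0.33 for Atp6v1b2, -0.07 to 0.84 for Atp6v1h and -0.34 to 0.03 for Atp6ap2, and that of Tfeb was -0.02 to 0.06. Gaa was also -0.01 and Ap1g1 0.01 with averaged probe sets, and Atp6ap2 was 0.22 and Ap1g1 0.13 without the suffixed ones. The cause was not tested. The number of arrays limits the precision of every difference given.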
